A study of Rattus norvegicus with 6 samples.

Results

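The genes described here are 45 rat genes of glycolysis and of the response to low oxygen, measured in intestinal epithelial cells depleted of Suz12. They form a chosen list, and a gene was measured by every probe set whose annotation gave its symbol and no other. By that rule 43 of the 45 genes were measured, by 64 of the 31042 probe sets tested, and the 20826 of those probe sets that carried 1 symbol stood for 14217 genes in all. Pkm, the muscle pyruvate kinase, had only 1 probe set, shared with other symbols, and was not measured. Gapdh, the glyceraldehyde-3-phosphate dehydrogenase, likewise had 1 shared probe set, and beside it array control probe sets, which are given separately. Suz12 is a core subunit of Polycomb repressive complex PRC2, which methylates histone H3 at sites of silenced genes. The study infected IEC-6, a rat crypt-like cell line that is not tumorigenic, with a lentivirus carrying a short hairpin RNA against Suz12 (ShSuz12 cells) or with a lentivirus carrying a scrambled hairpin (control cells). Both lines were selected with puromycin, were grown in serum-containing medium and received no other treatment, and each group was 1 infected population with 1 hairpin. RNA from 3 experiments per line was hybridized to 6 Affymetrix rat arrays, and 1 log2 value per probe set and array was deposited.

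Glycolysis splits glucose into pyruvate, which is reduced to lactate by lactate dehydrogenase or enters the mitochondrion through pyruvate dehydrogenase. Cells short of oxygen favor the lactate route: the alpha subunits of the hypoxia-inducible factors (HIF), otherwise hydroxylated by prolyl hydroxylases and bound by the von Hippel-Lindau protein for destruction, accumulate, pair with Arnt and induce glycolytic genes. The intestinal epithelium lives beside an anaerobic lumen and uses this system for barrier functions. HIF proteins are governed largely at the level of protein stability, which RNA arrays do not read.

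Suz12 itself read 5.82, 5.77 and 5.91 on the ShSuz12 arrays, against 8.45, 8.55 and 8.77 on the control arrays, a log2 change (ShSuz12 minus control, the log2 of the fold change) of -2.76 (standard error 0.09, adjusted p = 2.78e-07, limma with Benjamini-Hochberg adjustment over all 31042 probe sets, as for every adjusted p here). Array medians ran from 6.26 to 6.27 in ShSuz12 cells and from 6.15 to 6.17 in control cells. The 3′ minus 5′ difference of the Gapdh control probe sets, a measure of RNA integrity, ran from 0.11 to 0.117 on the ShSuz12 arrays and from 0.0527 to 0.224 on the control arrays, where replicate 2 was the highest of the 6. Of 14 markers of intestinal epithelium 3 lay above the array median, among them Cdh1 at 11.82 in ShSuz12 cells and 12.58 in control cells, whereas 9 of 12 fibroblast and smooth muscle markers did. The summed level of the epithelial markers, which the bright Cdh1 dominates, was 12.26 to 12.31 on the log2 scale in ShSuz12 cells, against 12.79 to 12.95 in control cells, and that of the fibroblast markers was 15.35 to 15.41 in ShSuz12 cells, against 14.86 to 14.98 in control cells. Single markers did not all follow the sums. Of the epithelial markers Lgr5, Cdx2 and Krt19 were higher (log2 changes 3.59, 1.56 and 1.19) and Cdh1 and Krt8 were lower (-0.76 and -0.41), and of the fibroblast and smooth muscle markers 6 were higher, among them Col1a2 (2.34) and Col3a1 (2.33), and Acta2 and Tagln were lower (-0.66 and -0.35). Of 8 measured leukocyte markers 1, Cd14, and of 5 endothelial markers 0 lay above the array median. The leukocyte sum, which Cd14 dominates (9.93 in ShSuz12 cells and 10.16 in control cells), was 10.09 to 10.17 in ShSuz12 cells, against 10.34 to 10.39 in control cells. The endothelial sum was 6.94 to 7.02 in ShSuz12 cells, against 6.72 to 6.84 in control cells. Of the leukocyte markers 4 were lower, Cd14 (-0.225), Cd4 (-0.22), Cd68 (-0.32) and Itgam (-0.25), and 0 were higher. The endothelial Kdr was higher (0.78, with -0.07 at its other probe set). The part of all these markers in the results below was not tested. The arrays measured whole cell populations, in which fewer cells with a transcript and less transcript per cell cannot be told apart, and p-values measure only the spread between experiments with 1 line per group.

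In ShSuz12 cells the genes of glycolysis and hypoxia moved in both directions, and the large differences lay in a few isoforms and regulators: Car2, Epas1, Ldhb, Egln3, Pfkp and Pfkfb3. Of the 43 measured genes, each represented by its brightest probe set, 12 passed the threshold (adjusted p under 0.05) on the higher side, 9 passed on the lower side and 22 did not pass. The 12 higher genes were 27.9% of the members, against 17.1% of all 14217 genes, and the 9 lower genes were 20.9%, against 23.3%. At least 2-fold higher were 6 members (14%), against 3.82% of all genes. The members were chosen with earlier results of these data known, so these shares describe the list and do not test it. Above the 60th percentile of brightness 33 of the 43 members remained, and the genes compared were not matched to the members for brightness. No member was 2-fold lower by limma or by the methods' t-test, with p adjusted or not, against 0.422% of all genes. The median log2 change of the members was 0.01, beside -0.05 over all genes. Of the 64 member probe sets 16 (25.0%) were higher and 11 (17.2%) were lower, against 14.8% and 19.5% of all probe sets. Subtracting each array's median moved the median of all probe sets to -0.15 and gave 12 members higher and 16 lower, beside 13.6% and 41.7% of all genes, so the count of lower members moved with the scaling.

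**Figure D1:**
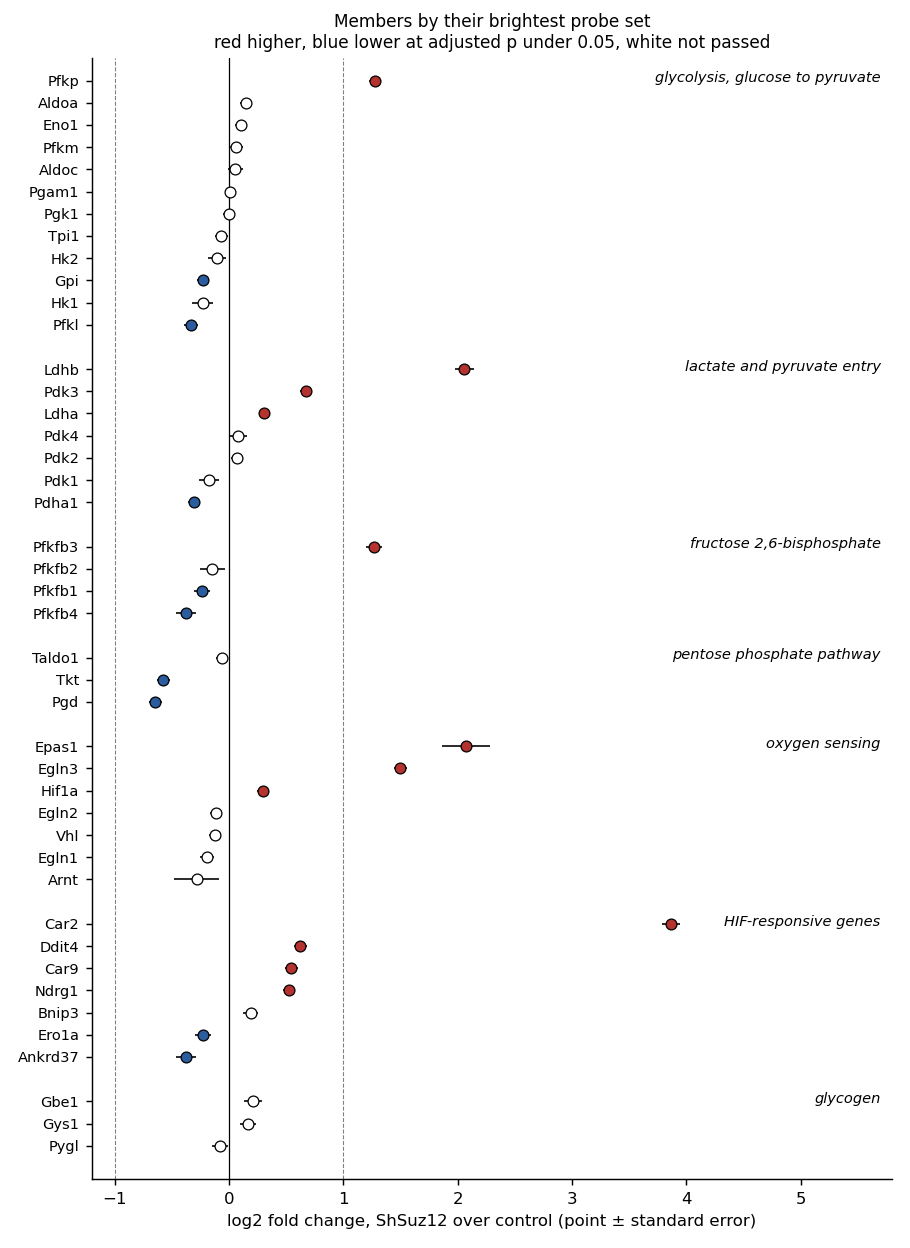
Log2 change of each of the 43 measured members, ShSuz12 over control, with its standard error, grouped by role (3 arrays per group). The 6 members past the right dashed line, at least 2-fold higher, are Car2 (3.87), Epas1 (2.07), Ldhb (2.06), Egln3 (1.5), Pfkp (1.28) and Pfkfb3 (1.27), and no point reaches the left dashed line.

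Of the 7 genes of oxygen sensing 3 rose (42.9%, against 17.1% of all genes) and 4 did not pass. Their median log2 change was -0.11. Epas1 encodes HIF-2 alpha, the oxygen-regulated subunit known in the gut for its control of iron uptake. Its brighter probe set read 7.35, 6.73 and 7.48 in ShSuz12 cells, against 5.00, 5.46 and 4.90 in control cells. The groups did not overlap, but replicate 2 lay toward the other group in both lines, and the spread was the widest among the members that passed the test. The log2 change was 2.07 (standard error 0.21, adjusted p = 1.66e-04). The other Epas1 probe set, with values from 4.36 to 4.59 in ShSuz12 cells and from 4.61 to 4.74 in control cells, had a log2 change of -0.22 (adjusted p = 0.0528), so the increase rested on 1 of 2 probe sets, and their mean gave 0.93. That dimmer probe set read near the leukocyte marker Cd3e (4.47 in ShSuz12 cells and 4.61 in control cells) and was not shown to exceed background. Hif1a, which encodes the more widely expressed HIF-1 alpha, had values of 11.03, 11.06 and 11.05 in ShSuz12 cells and of 10.77, 10.70 and 10.78 in control cells. That was a small, separated increase of 0.30 (standard error 0.05, adjusted p = 2.70e-03).

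Arnt encodes the constitutive partner of both alpha subunits. Its values were 6.49, 6.02 and 6.29 in ShSuz12 cells, against 6.89, 6.10 and 6.67 in control cells. The groups overlapped, with replicate 2 the lowest of each, and the log2 change of -0.28 did not pass (standard error 0.20, adjusted p = 0.320). Without control replicate 2, the array with the largest 3′ minus 5′ differences, it was -0.51 (adjusted p = 0.0289). Egln3, the prolyl hydroxylase that HIF itself induces in hypoxia, had values of 9.65, 9.55 and 9.70 in ShSuz12 cells, against 8.13, 8.14 and 8.14 in control cells. The control arrays had an SD of only 0.004, and Egln3 was 2.82-fold higher (log2 change 1.5, standard error 0.06, adjusted p = 6.84e-07). The other hydroxylases, Egln1, regarded as the main oxygen sensor, and Egln2, had log2 changes of -0.19 (adjusted p = 0.0501) and -0.11 (adjusted p = 0.141), and Vhl, which targets hydroxylated HIF for degradation, had -0.12 (adjusted p = 0.119). In the reported fit no gene of this role was lower by limma with adjustment. At an unadjusted p under 0.05 limma gave 1 lower and the methods' t-test gave 3. Egln1 passed without control replicate 3 (-0.23, adjusted p = 0.0475), with probe sets above the 40th or 60th percentile alone (adjusted p = 0.0295 and 0.0191) and with an intensity trend (adjusted p = 0.0213), and Vhl passed above the 60th percentile (adjusted p = 0.0423). However, the other Egln1 probe set had -0.05 in the reported fit (adjusted p = 0.642), with overlapping groups. With array medians subtracted Egln1 (-0.29), Egln2 (-0.22) and Vhl (-0.23) all passed as lower (adjusted p = 0.0078, 0.0137 and 0.0107). Under that scaling 41.7% of all genes were lower.

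**Figure D2:**
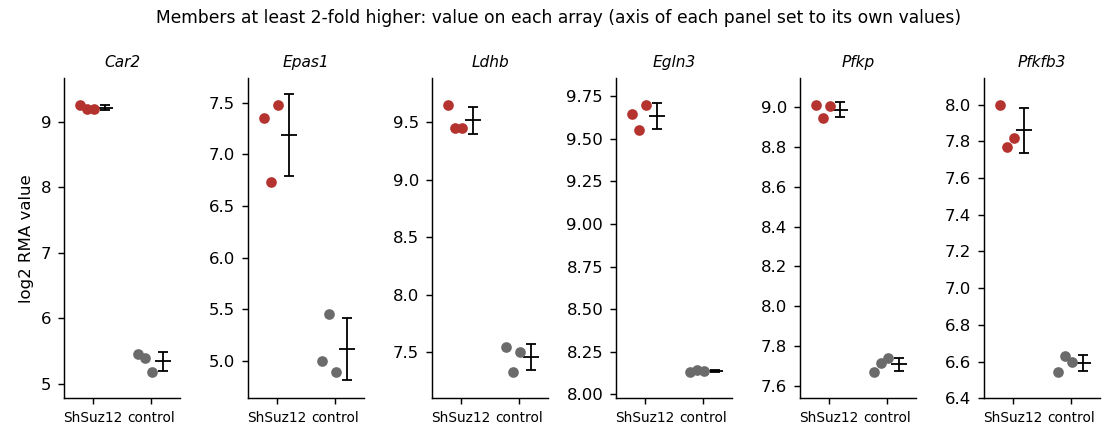
Log2 RMA value on each array for the 6 members at least 2-fold higher, ShSuz12 arrays (red) left of control arrays (grey), with the mean and SD of 3 arrays beside the points. Each panel has its own axis. No panel shows an overlap, and Epas1 has the widest spread (SD 0.40 in ShSuz12 cells and 0.30 in control cells).

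Among the 7 genes grouped as HIF-responsive 4 rose (57.1%, against 17.1% of all genes), 2 fell (28.6%, against 23.3%) and 1 did not pass. Their median log2 change was 0.52. Car2, a cytosolic carbonic anhydrase that hydrates carbon dioxide to bicarbonate and protons, is a gene of differentiated gut epithelium as well as an acid-base enzyme. Its log2 values were 9.26, 9.19 and 9.19 in ShSuz12 cells, against 5.46, 5.40 and 5.19 in control cells. The measured levels thus differed 14.6-fold, the largest log2 change among the members (log2 change 3.87, standard error 0.08, adjusted p = 2.47e-08). Its other probe set, at 8.37, 8.27 and 7.83 in ShSuz12 cells and at 4.91, 5.04 and 5.04 in control cells, had levels that differed 8.94-fold (adjusted p = 1.19e-06). No detection call was used here, and Car2 in control cells (mean 5.35, percentile 39.7 of all probe sets) read near the leukocyte marker Cd68 (5.27), so its control level was not shown to exceed background and neither the fold nor the rank is exact. The same holds for the control level of Epas1 (mean 5.12, percentile 36.3). Different leukocyte markers serve in such comparisons in this text. Their means in control cells ran from 3.89 (Ptprc) to 10.16 (Cd14), and Cd68 itself was lower in ShSuz12 cells (-0.32, adjusted p = 0.0326). None of them was thus shown to mark a background level. Car9, the membrane-bound carbonic anhydrase that is a classical HIF-1 target, changed far less. It had values of 8.76, 8.84 and 8.81 in ShSuz12 cells, against 8.24, 8.33 and 8.2 in control cells (log2 change 0.55, standard error 0.06, adjusted p = 2.14e-04).

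Ddit4, a stress-induced inhibitor of mTORC1 signaling, had values of 8.86, 8.83 and 8.95 in ShSuz12 cells, against 8.28, 8.21 and 8.27 in control cells. The difference of 0.62 was larger than the spread of either group (standard error 0.06, adjusted p = 8.36e-05). Ndrg1, a differentiation- and stress-related gene, had values of 10.08, 10.06 and 10.06 in ShSuz12 cells, against 9.56, 9.59 and 9.49 in control cells. It rose by 0.52 (standard error 0.05, adjusted p = 1.59e-04) and by 0.33 at its other probe set (adjusted p = 0.0159). Bnip3, a mitophagy receptor, had a log2 change of 0.19 that did not pass (adjusted p = 0.0608), although the groups did not overlap. It passed under 7 of the 16 other settings, among them the unadjusted t-test and the fit without ShSuz12 replicate 2 (0.24, adjusted p = 0.0345). The 2 genes that fell are known as hypoxia-induced genes too. Ankrd37, an ankyrin repeat gene, fell by 0.38 (adjusted p = 0.0110). Ero1a, an oxidase of the endoplasmic reticulum, fell by 0.23 (adjusted p = 0.0358), a call that did not hold without ShSuz12 replicate 1 (-0.21, adjusted p = 0.102), 2 (-0.23, 0.0861) or 3 (-0.24, 0.0739) or without control replicate 1 (-0.19, 0.108) or 2 (-0.20, 0.0910).

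HIF binds the letters ACGTG or GCGTG, and the 250 bases before the RefSeq start sites of the members were searched for them on both strands, overlapping matches counted (build GRCr8). Such a window was listed for 41 of the 45 genes, 45 windows in all, and none was listed for Pgk1, Car2, Ndrg1 and Ero1a. At least 1 match was present in 27 of the 45 member windows (60%), against 12284 of all 33469 windows (36.7%). Member windows were also richer in G and C, with a median of 60.4% against 51.2%, and their median ratio of observed to expected CpG was 0.644 against 0.383. Within the members a match stood in 7 of 10 windows of genes that were higher (70.0%), in 3 of 8 of genes that were lower (37.5%) and in 16 of 25 of genes that did not pass (64.0%). ACGTG alone stood in 5, 1 and 9 of these windows and in 16.6% of all windows. The windows of Epas1, Egln3 and Car9 held no match, and that of Ankrd37, which fell, held 4. A match is a description of the letters, not a bound site, and the start used in these cells is not known from the arrays.

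Of the 12 measured enzymes that carry glucose to pyruvate 1 rose (8.33%, against 17.1% of all genes), 2 fell (16.7%, against 23.3%) and 9 did not pass. Their median log2 change was 0.00. The gene that rose was Pfkp, the platelet isoform of phosphofructokinase, the enzyme of the committed step. Its values were 9.01, 8.94 and 9.0 in ShSuz12 cells, against 7.67, 7.71 and 7.74 in control cells. The SD was 0.038 in ShSuz12 cells and 0.034 in control cells, and Pfkp was 2.43-fold higher (log2 change 1.28, standard error 0.05, adjusted p = 1.03e-06). The liver isoform Pfkl fell by 0.33 (adjusted p = 3.99e-03), and the muscle isoform Pfkm had log2 changes of 0.06, 0.05 and -0.07 at its 3 probe sets, none of which passed. Gpi, which isomerizes glucose 6-phosphate, fell by 0.23 (adjusted p = 0.0109). Subtracting Pfkl from Pfkp within each array gave 2.56, 2.55 and 2.45 in ShSuz12 cells, against 0.83, 0.96 and 0.93 in control cells, a change of 1.61 that does not depend on a shift of the whole array. Only the change between groups is read from such pairs, since 2 probe sets differ in brightness for reasons other than transcript number. The window before the Pfkp start is shown because this isoform alone rose, with its single match in capitals, 43 bases before the start (chr17:68639563-68639812, plus strand).
Pfkp: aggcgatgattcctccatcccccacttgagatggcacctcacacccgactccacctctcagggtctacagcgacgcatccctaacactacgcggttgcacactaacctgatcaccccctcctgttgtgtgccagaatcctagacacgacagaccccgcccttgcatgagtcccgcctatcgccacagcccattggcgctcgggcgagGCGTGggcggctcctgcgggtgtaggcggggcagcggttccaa

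The enzymes of the lower pathway did not pass the test. Aldoa, the main aldolase, had a log2 change of 0.15 (adjusted p = 0.0574), and the aldolase C gene Aldoc had 0.06. Tpi1 (-0.07), Pgk1 (0.00), Pgam1 (0.01) and Eno1 (0.11), which encode triosephosphate isomerase, phosphoglycerate kinase, phosphoglycerate mutase and enolase, had adjusted p values from 0.171 to 0.965. Of the hexokinases, which trap glucose in the cell, Hk1 had -0.23 (adjusted p = 0.0855) and the inducible Hk2 had -0.10 (adjusted p = 0.359). Hk1 passed under 4 of the 16 other settings, among them the fit without control replicate 3 (-0.33, adjusted p = 0.0147). Aldoa lay near the threshold as well and passed it under 7 of the 16 other settings, none of which left out an array.

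Gapdh was read by 3 control probe sets, which the test left out. At the 3′ end they had values of 13.11, 13.10 and 13.08 in ShSuz12 cells, against 13.32, 13.31 and 13.31 in control cells. The middle of the transcript had 13.16, 13.18 and 13.15 in ShSuz12 cells, against 13.46, 13.32 and 13.42 in control cells. The 5′ end had 13.00, 12.99 and 12.97 in ShSuz12 cells, against 13.27, 13.09 and 13.26 in control cells. ShSuz12 cells were lower at all 3 with no overlap. With these probe sets kept in the fit, a choice made after the data were seen, Gapdh fell by 0.22, 0.24 and 0.22 at the 3′ end, middle and 5′ end (adjusted p = 0.00885, 0.0128 and 0.0281), and by 0.32, 0.34 and 0.32 with array medians subtracted and 0.21, 0.24 and 0.24 after a second quantile normalization. Gapdh was the loading control of the RT-PCR assays in the study. The control probe sets of Hk1 had log2 changes of -0.28 (adjusted p = 0.0111), -0.11 and -0.32, of which only the first passed.

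Of the 7 genes at the branch between lactate and the mitochondrion 3 rose (42.9%, against 17.1% of all genes). A further 1 fell (14.3%, against 23.3%) and 3 did not pass. Ldhb, the heart-type subunit of lactate dehydrogenase, associated with oxidation of lactate to pyruvate, had values of 9.65, 9.45 and 9.45 in ShSuz12 cells, against 7.55, 7.33 and 7.5 in control cells. It was 4.16-fold higher (log2 change 2.06, standard error 0.08, adjusted p = 9.76e-07). Ldha, the muscle-type subunit and a standard HIF-1 target, had values of 12.34, 12.32 and 12.31 in ShSuz12 cells, against 12.02, 12.04 and 11.99 in control cells. It was 1.24-fold higher (log2 change 0.31, standard error 0.05, adjusted p = 1.88e-03). Within each array, Ldhb minus Ldha was -2.69, -2.88 and -2.85 in ShSuz12 cells, against -4.47, -4.70 and -4.49 in control cells, so the balance of the 2 probe sets moved toward Ldhb by 1.75 log2 units. The windows before both starts are shown because the subunits differ both in the size of the response and in the motif letters. The Ldha window (chr1:106507842-106508091, plus strand) held 4 matches, 2 of them overlapping as CACGTG, and the Ldhb window (chr4:177177409-177177658, minus strand) held 1. Matches are in capitals.
Ldha: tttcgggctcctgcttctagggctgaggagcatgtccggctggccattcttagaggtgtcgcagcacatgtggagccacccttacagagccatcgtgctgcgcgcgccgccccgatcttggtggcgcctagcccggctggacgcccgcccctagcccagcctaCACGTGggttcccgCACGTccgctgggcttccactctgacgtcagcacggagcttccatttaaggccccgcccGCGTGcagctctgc
Ldhb: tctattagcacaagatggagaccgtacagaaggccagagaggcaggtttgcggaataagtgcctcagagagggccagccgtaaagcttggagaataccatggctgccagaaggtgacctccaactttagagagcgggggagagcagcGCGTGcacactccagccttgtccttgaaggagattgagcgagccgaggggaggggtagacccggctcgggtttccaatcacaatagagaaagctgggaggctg

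The pyruvate dehydrogenase kinases switch off pyruvate entry into the mitochondrion by phosphorylating its E1 subunit. Pdk3 had values of 8.72, 8.83 and 8.74 in ShSuz12 cells, against 8.07, 8.09 and 8.09 in control cells. It rose by 0.67 (standard error 0.05, adjusted p = 4.13e-05) and by 0.47 at its other probe set (adjusted p = 8.97e-04). Pdk1, the kinase most often named as a HIF-1 target, had a log2 change of -0.17 at its brighter probe set, which did not pass (adjusted p = 0.166), and fell by 0.48 at the other (adjusted p = 3.30e-04). Their mean gave -0.32 (adjusted p = 9.34e-04), and the brighter probe set had -0.27 with array medians subtracted (adjusted p = 0.0291). Pdk2 had 0.07 and 0.05, neither passing. Pdk4, the starvation-induced kinase, had 0.08 (adjusted p = 0.443) and rose by 0.32 at its dimmer probe set (adjusted p = 0.0321). That dimmer probe set read 3.88 in ShSuz12 cells and 3.56 in control cells, and was not shown to exceed background. Pdha1, which encodes the E1 alpha subunit that these kinases act on, fell by 0.31 (adjusted p = 1.79e-03) and by 0.47 at its other probe set (adjusted p = 1.98e-03). Pdk3 and Pdha1 thus moved in opposite directions at both of their probe sets.

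The 4 Pfkfb genes encode the bifunctional enzymes that make and break fructose 2,6-bisphosphate, the strongest activator of phosphofructokinase. Pfkfb3, the isoform with the highest kinase activity and the one induced by hypoxia and growth signals, rose, Pfkfb1 and Pfkfb4 fell, and Pfkfb2 did not pass. The brightest Pfkfb3 probe set had values of 8.0, 7.77 and 7.82 in ShSuz12 cells, against 6.54, 6.63 and 6.60 in control cells. It was 2.41-fold higher (log2 change 1.27, standard error 0.07, adjusted p = 6.27e-06). The other 2 probe sets of Pfkfb3 had log2 changes of 0.05 (adjusted p = 0.660) and 0.13 (adjusted p = 0.199), and the mean of the 3 gave 0.49, which is under 2-fold. The probe set with 0.13 read 4.70 in ShSuz12 cells and 4.57 in control cells and was not shown to exceed background. Pfkfb4 fell by 0.37 (adjusted p = 0.0109), with -0.13 at its other probe set (adjusted p = 0.446) and -0.25 for their mean (adjusted p = 0.0508). Pfkfb1, the liver and muscle isoform, fell by 0.23 (adjusted p = 0.0330), and it did not pass without ShSuz12 replicate 1 (-0.20, adjusted p = 0.107) or 3 (-0.22, 0.0948) or without control replicate 2 (-0.21, 0.0817) or 3 (-0.20, 0.0982). The 4 probe sets of Pfkfb2 ran from -0.14 to 0.11. The Pfkfb3 window (chr17:71944683-71944932, plus strand) is shown because it held the palindrome CACGTG, which matches on both strands, 42 bases before the start.
Pfkfb3: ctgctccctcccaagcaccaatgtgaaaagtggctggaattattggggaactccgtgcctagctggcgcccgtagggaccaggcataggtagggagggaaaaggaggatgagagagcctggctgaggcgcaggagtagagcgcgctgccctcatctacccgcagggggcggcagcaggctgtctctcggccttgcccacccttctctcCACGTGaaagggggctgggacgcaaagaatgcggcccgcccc

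**Figure D3:**
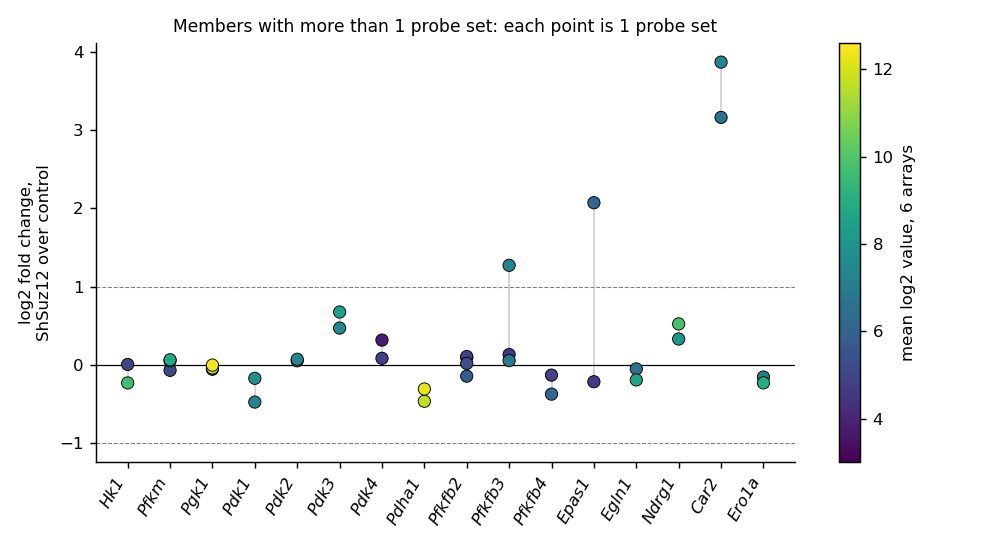
Log2 change, ShSuz12 over control, of every probe set of the 16 members with more than 1 tested probe set, colored by its mean log2 value over the 6 arrays. Both Car2 points lie above 3, whereas the Epas1 (2.07 and -0.22) and Pfkfb3 (1.27, 0.13 and 0.05) points disagree.

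Of the 3 pentose phosphate members 2 fell (66.7%, against 23.3% of all genes) and 1 did not pass. None was higher by limma or the methods' t-test at an unadjusted p under 0.05, and the median log2 change was -0.57. Among 8 other measured genes in or beside this pathway, given below, 2 were higher (25%, against 17.1% of all genes) and 2 were lower (25%, against 23.3%). Pgd, the 6-phosphogluconate dehydrogenase that yields NADPH in the oxidative branch, had values of 9.12, 9.10 and 9.14 in ShSuz12 cells, against 9.83, 9.72 and 9.75 in control cells. It fell by 0.64 (standard error 0.05, adjusted p = 5.76e-05), the largest decrease of any member. Tkt, the transketolase of the non-oxidative branch, had values of 11.27, 11.29 and 11.27 in ShSuz12 cells, against 11.86, 11.92 and 11.78 in control cells, and fell by 0.57 (standard error 0.06, adjusted p = 1.30e-04). Taldo1, the transaldolase of the same branch, had -0.06 (adjusted p = 0.403). Both decreases were larger than the shift of all genes under any of the scalings and stood at -0.74 and -0.67 with array medians subtracted.

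The glycogen members did not pass. Gys1, glycogen synthase, had a log2 change of 0.17 (adjusted p = 0.0944), the branching enzyme gene Gbe1 had 0.21 (adjusted p = 0.0681) and Pygl, liver glycogen phosphorylase, had -0.08 (adjusted p = 0.431). At an unadjusted p under 0.05 limma gave 2 of the 3 higher and none lower, and the methods' t-test gave none in either direction. Gbe1 passed under 5 of the 16 other settings, among them the fit without control replicate 2 (0.25, adjusted p = 0.0496).

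**Figure D4:**
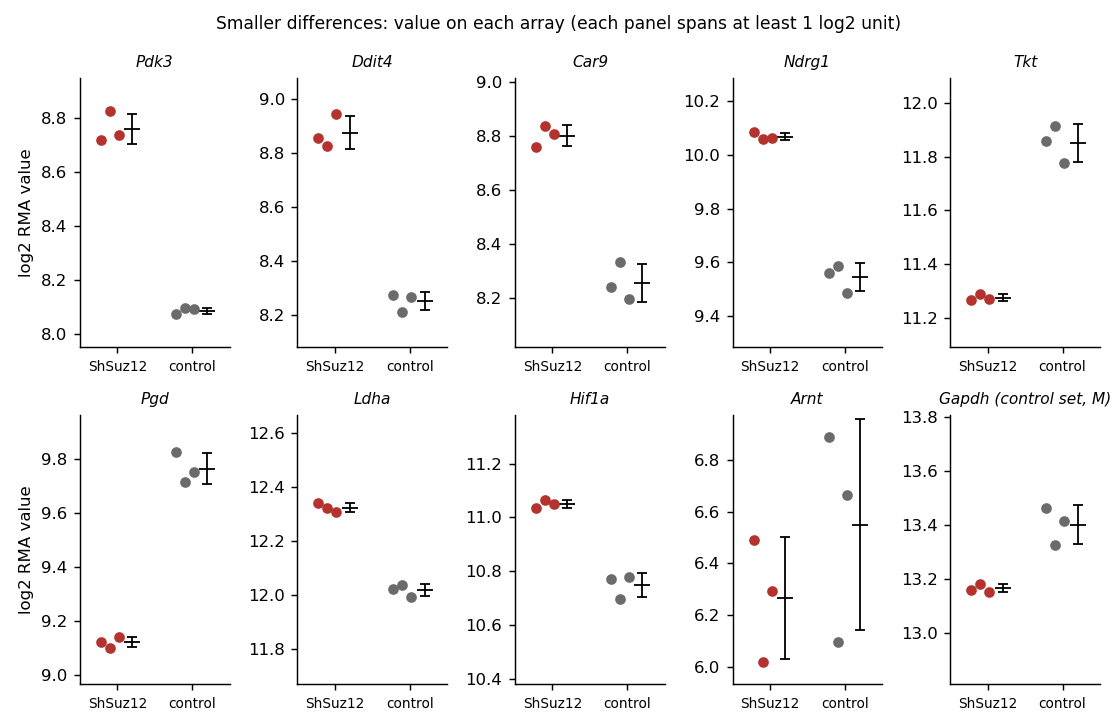
Log2 RMA value on each array for the members with smaller differences, ShSuz12 arrays (red) left of control arrays (grey), with the mean and SD of 3 arrays. Tkt, Pgd and the control probe set at the middle of Gapdh are lower on every ShSuz12 array, Pdk3, Ddit4, Car9, Ndrg1, Ldha and Hif1a are higher, and Arnt overlaps (-0.28).

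The balance between isoforms of a step was compared by subtracting 1 gene from another within each array, for 13 pairs. In 10 pairs the difference did not overlap between ShSuz12 and control arrays, which gave the smallest p the exact two-sided permutation test allows with 3 against 3 arrays (p = 0.1, 0.13 after Benjamini-Hochberg adjustment over the pairs). That test cannot place any pair under 0.05 with so few arrays, and no other test of the pairs was run. The pairs were chosen with earlier results of these data known. No share of separated pairs was computed over other genes, so the count of separated pairs has no baseline. Beyond Ldhb and Ldha and Pfkp and Pfkl, the pairs with the largest changes were Epas1 minus Hif1a (1.77), Egln3 minus Egln1 (1.69), Pfkfb4 minus Pfkfb3 (-1.65) and Pfkfb2 minus Pfkfb3 (-1.42). Smaller separated changes were seen for Pdk3 (0.85), Pdk4 (0.26) and Pdk2 (0.24) minus Pdk1 and for Pfkm minus Pfkl (0.40). The pairs that overlapped were Hk2 minus Hk1 (0.13, exact p = 0.6), Aldoc minus Aldoa (-0.10, exact p = 0.2) and Egln2 minus Egln1 (0.08, exact p = 0.3). With the mean of all probe sets of a gene, Epas1 minus Hif1a was 0.63, Pfkfb4 minus Pfkfb3 was -0.74 and Pfkfb2 minus Pfkfb3 was -0.47.

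Other genes of the same pathways, 123 in 8 lists of which 108 were measured, moved to both sides at rates close to those of all genes. Of the 108 genes 22 were higher (20.4%, against 17.1%) and 25 were lower (23.1%, against 23.3%), and 6 were at least 2-fold higher (5.56%, against 3.82%). The lists below name up to 4 genes with the largest changes among those that passed. Carbonic anhydrases had 5 of 12 higher (41.7%, against 17.1% of all genes) and 0 lower (against 23.3%). None was lower at an unadjusted p under 0.05 by limma or the methods' t-test. Car1 had values of 8.53, 8.45 and 8.44 in ShSuz12 cells, against 4.51, 4.92 and 4.50 in control cells, so that the measured levels differed 14.2-fold (adjusted p = 1.59e-07). Car3, the muscle-type enzyme, was 3.87-fold higher (adjusted p = 6.37e-06) and rose by 0.25 at its other probe set (adjusted p = 0.0430). Car8 (0.75) and Car5b (0.56) rose less, on the log2 scale. In control cells Car1 (4.64) and Car3 (4.61) read at the level of the leukocyte markers Cd3e (4.61) and Cd4 (4.60), and Car8 (4.05) read below them. Car1, Car3 and Car8 were thus not shown to exceed background there, and their folds are not exact. Car5b read 7.87 in control cells (percentile 69.9).

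Car2, Car3 and Car1 are consecutive named protein-coding genes in the RefSeq order of build GRCr8, and all 3 were at least 2-fold higher. Binding of 1 gene's transcript to the probes of another carbonic anhydrase was not tested. Looked at after these values were known, the 3 nearest named genes on each side of the 6 members at least 2-fold higher were 36 genes, 25 of them measured. Of the 25, 6 were higher and 7 were lower, beside 17.1% and 23.3% of all genes. At least 2-fold higher were 4 of the 25, beside 3.82% of all genes, around members picked for being at least 2-fold higher themselves. These 4 were Car3 and Car1 beside Car2 and, beside Pfkfb3, Prkcq (log2 change 1.87, adjusted p = 2.34e-06) and Sfmbt2 (1.38, adjusted p = 2.95e-06). Prkcq encodes a protein kinase C, and Sfmbt2 encodes a Polycomb-related protein. No measured neighbor of Ldhb, Epas1, Egln3 or Pfkp was 2-fold higher.

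Among 9 transporters of glucose, lactate and pyruvate 2 rose (22.2%, against 17.1% of all genes) and 2 fell (22.2%, against 23.3%). Slc16a7, the monocarboxylate transporter MCT2, had a log2 change of 1.5 (adjusted p = 5.78e-06). In control cells it read 3.80 (percentile 11.7), below the leukocyte markers Cd3e (4.61) and Cd4 (4.60). Its control level was thus not shown to exceed background, and its fold is not exact. Slc16a1, the main lactate carrier MCT1, rose by 0.45 at its brighter probe set (adjusted p = 8.81e-04) with -0.19 at the other (adjusted p = 0.192). That other probe set read 4.71 in ShSuz12 cells and 4.90 in control cells and was not shown to exceed background. Mpc2, a subunit of the mitochondrial pyruvate carrier, fell by 0.48 (adjusted p = 2.72e-04), and the glucose transporter gene Slc2a3 fell by 0.30 (adjusted p = 0.0458), a call kept only when the array left out was control replicate 2 (without each other array -0.34 to -0.19, adjusted p 0.0616 to 0.140). Slc2a3 read 4.48 in ShSuz12 cells and 4.78 in control cells, near Cd3e (4.47 and 4.61), and was not shown to exceed background. Slc2a1, the glucose transporter that HIF induces, had -0.07 (adjusted p = 0.321). Of 14 other isoenzymes of glycolysis and gluconeogenesis 2 rose (14.3%, against 17.1% of all genes) and 5 fell (35.7%, against 23.3%). Eno2, the neuronal enolase, rose by 1.52 (adjusted p = 4.68e-05), Eno3, the muscle enolase, fell by 0.99 (adjusted p = 3.30e-06), Bpgm rose by 0.45 and the testis isoform Ldhc fell by 0.38. The call of Ldhc did not hold without ShSuz12 replicate 2 or 3 or control replicate 2 or 3 (-0.38 to -0.30, adjusted p 0.0559 to 0.0775). Ldhc read 4.00 in ShSuz12 cells and 4.38 in control cells, below Cd3e, and was not shown to exceed background. A list of 7 other genes held the pyruvate dehydrogenase complex, its phosphatases and the pyruvate carboxylase gene Pc. Of these 5 fell (71.4%, against 23.3% of all genes), and Pc (0.16, adjusted p = 0.153) did not pass. None of the 7 rose, by limma or by the methods' t-test at an unadjusted p under 0.05. Their median log2 change was -0.25, and Pdhx (-0.35), Dld (-0.27), Pdhb (-0.26) and Pdpr (-0.25) fell, as Pdha1 did. However, Pdhx did not pass the methods' t-test after Benjamini-Hochberg adjustment (adjusted p = 0.0606). Pdpr did not pass without ShSuz12 replicate 1 or 3 or control replicate 2 or 3 (-0.25 to -0.20, adjusted p 0.0956 to 0.129). It read 4.28 in ShSuz12 cells and 4.53 in control cells, below Cd3e, and was not shown to exceed background.

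Of 12 other genes of oxygen sensing and HIF regulation 1 rose (8.33%, against 17.1% of all genes) and 5 fell (41.7%, against 23.3%). Arnt2, a relative of Arnt that can pair with HIF alpha subunits, had values of 10.02, 9.94 and 9.96 in ShSuz12 cells, against 8.52, 8.72 and 8.47 in control cells, a log2 change of 1.40 (adjusted p = 4.62e-06), with 0.20 at its other probe set (adjusted p = 0.0896). Cited2, which competes with HIF-1 alpha for its coactivators, fell by 0.65 and by 0.72 at its 2 probe sets, and Siah2 (-0.34) and Siah1 (-0.28), ubiquitin ligases that act on prolyl hydroxylases, also fell. Siah1 did not pass without ShSuz12 replicate 1 or 2 or control replicate 1 or 3 (-0.32 to -0.19, adjusted p 0.0672 to 0.141). Of 28 other HIF targets 7 rose (25%, against 17.1% of all genes), 4 fell (14.3%, against 23.3%) and 17 did not pass. Their median log2 change was 0.07. Loxl2, a lysyl oxidase (0.68), and Angptl4, a lipoprotein lipase inhibitor (0.43), rose, whereas Plod2, a collagen lysyl hydroxylase (-0.54), and the repressor gene Bhlhe41 (-0.55) fell. Vegfa, the angiogenic factor, had 0.07 (adjusted p = 0.506). Of 8 other genes in or beside the pentose phosphate pathway 2 rose (25%, against 17.1% of all genes) and 2 fell (25%, against 23.3%). Rpe stood at -0.51, Rbks at 0.40, H6pd at 0.20 and Prps1 at -0.14. H6pd did not pass without ShSuz12 replicate 1 or 2 or control replicate 2 or 3 (0.17 to 0.21, adjusted p 0.0611 to 0.0985), and Prps1 did not pass without any 1 of the 6 arrays (-0.15 to -0.14, adjusted p 0.0792 to 0.126). Of 18 other genes of glycogen metabolism 3 rose (16.7%, against 17.1% of all genes) and 2 fell (11.1%, against 23.3%). Gaa, the lysosomal glucosidase of glycogen, led with 1.11 and 1.12 at its 2 probe sets (adjusted p = 1.97e-05 and 5.13e-06). Ppp1r3b fell by 0.45, Phka2 fell by 0.40 and Stbd1 rose by 0.40 in that list. In control cells Phka2 (5.21) and Angptl4 (5.11) read near the leukocyte marker Cd68 (5.27), so neither was shown to exceed background there.

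**Figure D5:**
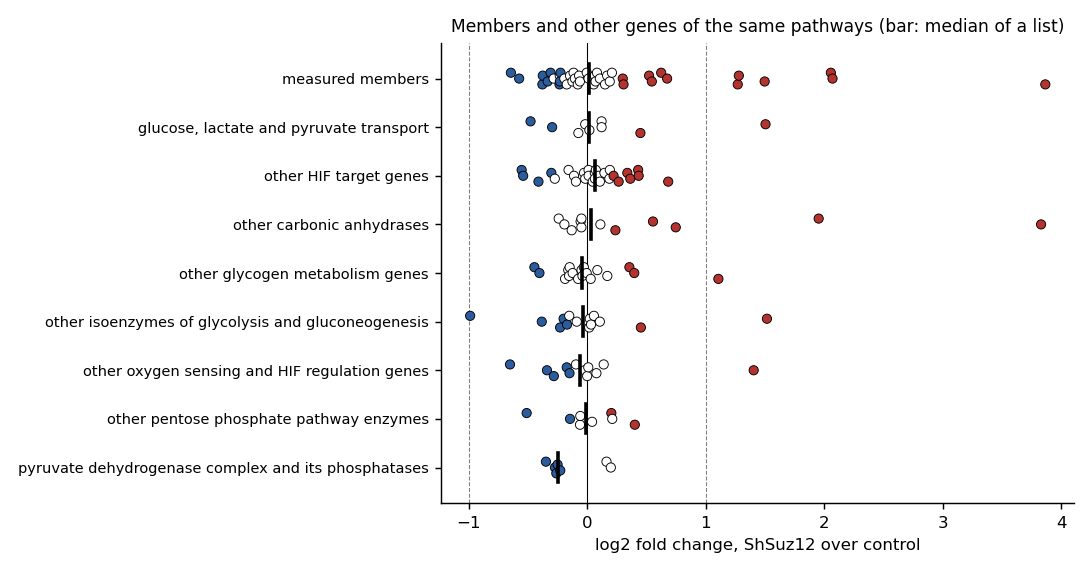
Log2 change, ShSuz12 over control, of the 43 measured members and of 108 other measured genes in 8 pathway lists, red higher and blue lower at an adjusted p under 0.05, with the median of each list as a bar. The pyruvate dehydrogenase list has its median at -0.25, and Car1 (3.83) lies farthest to the right outside the members.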

How the data were processed

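Total RNA of 3 ShSuz12 and 3 control IEC-6 experiments was labeled and hybridized to 6 Affymetrix rat arrays. The authors corrected the background and normalized the arrays by robust multi-array average (RMA) in FlexArray, and the deposited table holds 1 log2 value per probe set and array. Its genome build and the probe annotation date are not given in the sources used here. Array number, not read depth, limits the precision.

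Probe sets were named from the platform annotation: 20826 of the 31042 tested carried 1 symbol, 436 carried several and 9780 none that was listed. The 57 control probe sets stayed out of the fit. A gene was represented by its probe set with the highest mean of the 6 arrays, with no filter on low values. Groups were compared with limma 3.58.1 (lmFit and eBayes) in R 4.3.3, two-sided, with Benjamini-Hochberg adjustment across the whole table. The fit was checked on simulated data. Isoform pairs were compared by an exact permutation test. Members, gene lists and pairs were chosen with earlier results of these data known. Values of each array are given for members that passed with an absolute log2 fold change of at least 0.5 and for Gapdh, Hif1a, Epas1, Arnt, Ldha and Ldhb, and up to 4 genes are named per pathway list. Alternatives were the methods' Student's test (raw and adjusted p), a lower limit on brightness at percentile 40 or 60, array medians subtracted, quantile normalization repeated, robust eBayes with a trend, a replicate block, the mean of all probe sets of a gene, and leaving out each array. Promoter windows came from RefSeq (GRCr8). Figures were drawn with matplotlib 3.10.9.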

Additional observations from a re-analysis of the deposited data

How the results depend on the processing

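Over the 16 alternative settings, between 12 and 16 member genes were higher, and the 6 members at least 2-fold higher stayed at 6 except with the mean of all probe sets of a gene, which gave 4. Lower members, 9 in the reported fit, were 5 with the methods' t-test after Benjamini-Hochberg adjustment, 16 with array medians subtracted and 7 to 10 when each array was left out. With array medians subtracted, 21 member probe sets were lower, 39 genes of the pathway lists were lower and the median log2 fold change of the members was -0.0894. That setting moves every value down by the same amount, and other causes were not tested. With probe sets above the 60th percentile alone the median of the members was 0.107, with fewer genes tested. Leaving out each array gave 16 to 20 lower genes of the pathway lists in place of 25: 16 without ShSuz12 replicate 1, 2 or 3 or control replicate 3, 18 without control replicate 1 and 20 without control replicate 2. Of 1184 comparisons of a named gene with its reported value, 1069 kept direction and side of the threshold, 60 lost the call, 44 gained one and 11, in 7 genes with no call in either fit, changed sign. With array medians subtracted these were Pfkm (-0.0365), Aldoc (-0.0458), Pgam1 (-0.0894), Pdk2 (-0.03) and Pdk4 (-0.0182), after the second quantile normalization Aldoc (-0.0453) and Pgk1 (0.0123), and with the mean of all probe sets Pfkfb2 (0.0174). Pgk1 ran from -0.02 to 0.0101 when each array was left out. Of the lower members the methods' t-test after adjustment lost Pfkfb1, Pfkfb4, Ero1a and Ankrd37 (adjusted p = 0.0904, 0.0673, 0.0956 and 0.0686), and the second quantile normalization lost Ero1a (adjusted p = 0.0581). Of the named pathway genes the adjusted t-test lost Slc2a3, Phka2, Ldhc, Siah1, Rbks, Pdhx and Pdpr (adjusted p = 0.155, 0.0625, 0.111, 0.153, 0.0699, 0.0606 and 0.123), and the mean of all probe sets lost Slc16a1 (0.13, adjusted p = 0.146) and Siah1 (-0.15, adjusted p = 0.0695). H6pd lost its call with array medians subtracted, a second quantile normalization, an intensity trend or a replicate block (adjusted p = 0.178, 0.169, 0.0598 and 0.0636), and Prps1 with the second quantile normalization or the block (adjusted p = 0.139 and 0.113). Same-numbered arrays did not deviate together over all probe sets (correlations of 0.02, -0.04 and -0.06). These correlations cannot show whether experiments of 1 number were run as pairs. The fit with a replicate block gave 12 higher and 9 lower members, 16 and 12 member probe sets, and 21 higher and 20 lower genes of the pathway lists. In that fit Arnt passed (adjusted p = 0.0438) and Ero1a did not (adjusted p = 0.0629). The brightness of a probe set sets what can be read of dim members such as Pygl, Pdk4 and Hk2. Probe sets disagree for Epas1 and Pfkfb3 and differ in call but not direction for Pdk1, which limits those genes to the probe set named.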
